A study of Mus musculus with 4 samples.

Results

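CDK inhibitors, the tumour suppressor p53 and its ligase gene, the retinoblastoma gene and the D cyclins together decide whether a T cell leaves rest and enters the cell cycle. The 10 genes described here are Cdkn1a and Cdkn1b (CIP/KIP inhibitors), Cdkn2a, Cdkn2c and Cdkn2d (INK4 inhibitors), Trp53, Mdm2, Rb1, Ccnd2 and Ccnd3. They were chosen by symbol, and all 10 were found among the 24452 genes of the deposited table, which writes mouse symbols in capitals (CDKN1A, CDKN1B, CDKN2A, CDKN2C, CDKN2D, TRP53, MDM2, RB1, CCND2 and CCND3). Their transcripts were measured by RNA sequencing in regulatory T cells (Tregs), the Foxp3-bearing CD4 T cells that restrain immune responses, taken from mouse liver. Altre-KO Tregs, from young mice in which the long non-coding RNA Altre was knocked out, were compared with Altre-WT Tregs from young mice that keep it, with 2 libraries per genotype. The labels do not state how or in which cells Altre was removed, the sex or strain of the mice, their age beyond "young", or whether each library came from its own mouse. Altre itself was not analysed here. The p-values therefore rest on the spread between these libraries, which may be technical, and largely on the variance predicted from genes of similar level. In whole-population RNA, fewer cells of a type and less RNA per cell cannot be told apart.

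D cyclins bind the kinases Cdk4 and Cdk6 when a T cell is stimulated, and the active kinase phosphorylates the Rb1 protein, which then releases E2F transcription factors that drive entry into S phase. INK4 proteins block Cdk4 and Cdk6 directly, while p27 (Cdkn1b) and p21 (Cdkn1a) act mainly on Cdk2 complexes. The p53 protein raises Cdkn1a and Mdm2, and the Mdm2 protein marks p53 for destruction, which closes a feedback loop. In T cells Ccnd2 and Ccnd3 are the D cyclins in use, and p27 is known for holding resting lymphocytes out of the cycle.

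Levels are given in CPM, the authors' reads scaled so that every library has the same total over listed genes. The 2 Altre-KO libraries held an estimated 3266132 and 2361928 such reads, and the 2 Altre-WT libraries 1828772 and 2378953, so that 1 read stood for 0.306 to 0.547 CPM. Cd4 lay between 527 and 547 CPM and Cd8a at or below 0.42 CPM in every library. Cd8b1 was higher than Cd8a, at 5.82 and 4.66 CPM in Altre-KO and 7.11 and 8.83 CPM in Altre-WT. Foxp3 was at 79.5 and 162 CPM in Altre-KO, and at 160.4 and 140.4 CPM in Altre-WT. Marker sums of other cells overlapped between genotypes. They ran from 135.5 to 244 CPM in Altre-KO and 150.4 to 253.1 CPM in Altre-WT for 9 myeloid genes, and from 171.5 to 201.5 CPM and from 147.1 to 282.5 CPM for 7 B and plasma cell genes. The 8 hepatocyte genes summed to at most 1.69 CPM, with Alb, Ttr, Apoc3, Ahsg and Fgb listed at 0 throughout. The part of other cells' transcripts in the levels below was not tested. Treg marker sums were close, at 2747 and 2846 CPM in Altre-KO and 2827 and 2834 CPM in Altre-WT, and CD8 T and NK cell genes summed to at most 24.4 CPM. Endothelial, stellate and duct cell genes summed to 192.6 and 228.6 CPM in Altre-KO and 205.6 and 238.3 CPM in Altre-WT. Altre-KO replicate 1 stood apart in 3 ways. The reads falling on listed genes were 32.8% of its total, while the other libraries had 18.8% to 21.5%. Its Foxp3 was the lowest. It also had the fewest genes above 0 (14970, against 15818 to 16668) although the most reads on listed genes.

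Per kilobase of exon, Cdkn1b was the most abundant of the 10 transcripts in liver Tregs of both genotypes. Ccnd2, Cdkn2d, Mdm2, Rb1, Ccnd3 and Trp53 lay in between, Cdkn2c was low, and there was next to no Cdkn1a or Cdkn2a. No tested gene of the set differed between Altre-KO and Altre-WT in the limma test across all tested genes. Cdkn1a and Cdkn2a were too low to be tested. The fitted differences of the 8 genes above the low-value filter ran from -0.19 for Ccnd2 to 0.27 for Trp53 on the log2 scale. Ccnd2 was the member with the lowest fitted difference, and Ccnd3, its partner D cyclin, stood on the other side.

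**Figure D1:**
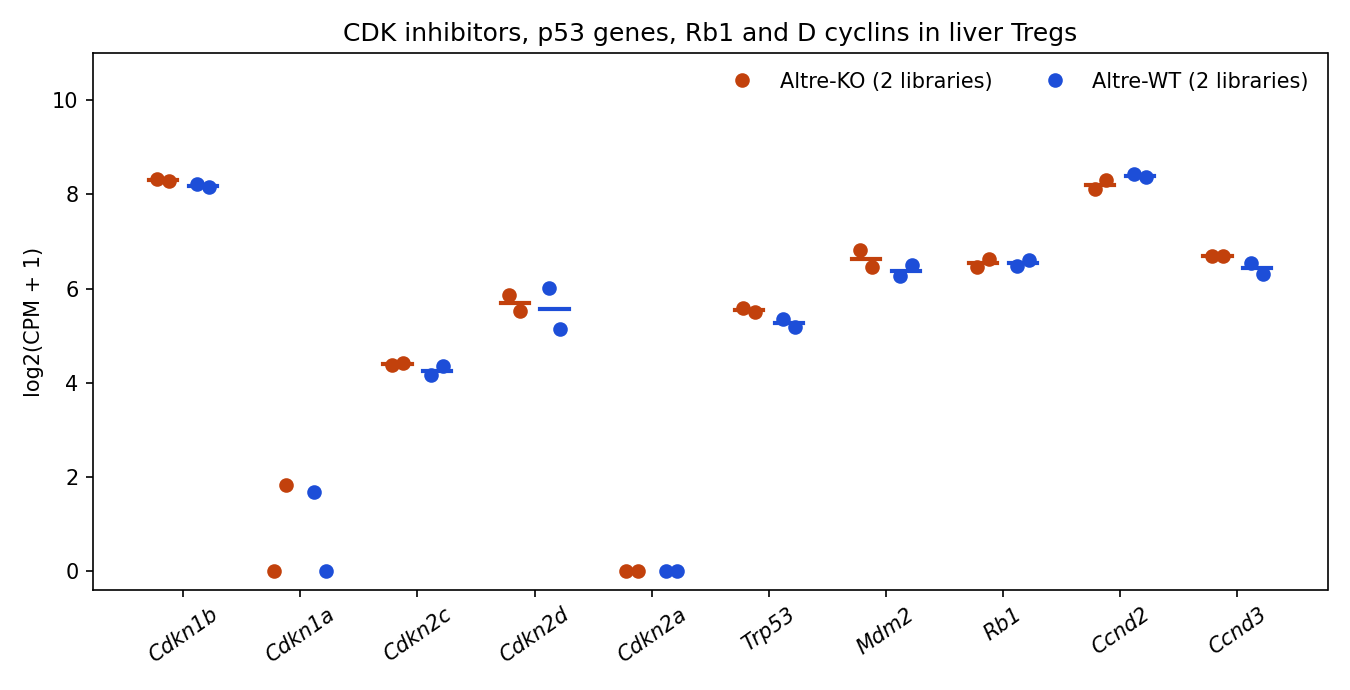
Level of each of the 10 genes in each library, as log2(CPM + 1), with Altre-KO on the left and Altre-WT on the right of each pair; dots are libraries and bars are genotype means, left out where a library is listed at 0. Cdkn1b and Ccnd2 sit highest, Cdkn2a is at 0 in all 4 libraries, and the genotypes lie close together for every gene.

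The filter kept genes that reached 4.22 CPM (10 estimated reads at the median depth) in at least 2 of 4 libraries, which left 10486 genes and 8 of the 10. Cdkn1a and Cdkn2a did not pass it and were not tested. In limma, 0 of the 8 had an adjusted p under 0.05, against 0.0381% of all tested genes. At an unadjusted p under 0.05 the count was also 0, against 3.66% of all tested genes, and limma-voom on estimated reads called 0. The adjusted p was 0.999 for each of the 8. In the authors' deposited table, all 10 had an adjusted p of 1, and the log2 fold changes of the 8 tested here ran from -0.19 to 0.27. With 2 libraries per genotype, the width of the intervals below comes mostly from the variance that limma predicts for genes of similar level (20.8 prior degrees of freedom) and less from the spread of the gene itself.

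The CIP/KIP inhibitor Cdkn1b, which encodes p27, was the most abundant inhibitor per kilobase of exon. In CPM it was at 318 and 308 CPM in Altre-KO (replicates 1 and 2), against 298 and 282 CPM in Altre-WT. Both Altre-KO libraries lay above both Altre-WT libraries, by a small margin. The means were 313 ± 6.77 CPM in Altre-KO and 290.2 ± 10.99 CPM in Altre-WT (SD, n = 2 each), with a log2 fold change of 0.11 (95% interval -0.20 to 0.42) and a fold of 1.08. The interval of the fold ran from 0.871 to 1.34, and the log2 fold change was 0.07 without Altre-WT replicate 2. Each value rested on 545 to 1038 estimated reads, the largest numbers of any inhibitor. Cdkn1b lies on chromosome 6 (134920401 to 134925513, plus strand, GRCm38) and is protein coding.

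Cdkn1a, which encodes p21, the inhibitor that p53 raises after DNA damage, was close to absent. It was listed at 0 and 2.54 CPM in Altre-KO, against 2.19 and 0 CPM in Altre-WT. The values above 0 stood for 6 and 4 estimated reads, and each genotype held 1 library at 0. No difference was detectable at this depth. Of the 4430 genes with a median of at least 50 CPM, 0 were listed at 0 in any library. Sampling hardly gives a 0 at such levels, so this count does not bear on zeros at the level of Cdkn1a. Cdkn1a lies on chromosome 17 (29090976 to 29100727, plus strand, GRCm38).

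The promoters of Cdkn1b and Cdkn1a are printed because these sister inhibitors stood far apart in level. RefSeq (GRCm38.p6) gives windows of 300 bases around a transcription start, most of them upstream of it, for 8 of the 10 genes, 12 windows in all, and Cdkn1a has 2 starts. Capitals mark p53 decamers, E2F letters (TTTCCCGC, TTTCGCGC, TTTGGCGC or TTTGCCGC) and GC boxes (GGGCGG), each searched on both strands, and positions are counted from the start. The first Cdkn1a window is chr17:29090729-29091028 and the second chr17:29093519-29093818, both on the plus strand, and the Cdkn1b window is chr6:134920151-134920450, also plus.
Cdkn1a, first start: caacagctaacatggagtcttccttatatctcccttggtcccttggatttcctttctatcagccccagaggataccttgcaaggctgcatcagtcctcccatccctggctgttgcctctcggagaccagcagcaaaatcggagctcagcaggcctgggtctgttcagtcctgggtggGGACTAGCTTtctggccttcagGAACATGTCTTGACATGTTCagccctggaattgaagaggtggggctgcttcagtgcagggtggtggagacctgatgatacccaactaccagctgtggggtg
Cdkn1a, second start: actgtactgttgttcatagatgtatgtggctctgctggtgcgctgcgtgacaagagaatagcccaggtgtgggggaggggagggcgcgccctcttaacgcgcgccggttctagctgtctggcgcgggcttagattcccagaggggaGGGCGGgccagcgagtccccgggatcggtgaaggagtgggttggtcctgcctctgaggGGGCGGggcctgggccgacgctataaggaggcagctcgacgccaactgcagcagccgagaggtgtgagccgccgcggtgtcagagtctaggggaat
Cdkn1b: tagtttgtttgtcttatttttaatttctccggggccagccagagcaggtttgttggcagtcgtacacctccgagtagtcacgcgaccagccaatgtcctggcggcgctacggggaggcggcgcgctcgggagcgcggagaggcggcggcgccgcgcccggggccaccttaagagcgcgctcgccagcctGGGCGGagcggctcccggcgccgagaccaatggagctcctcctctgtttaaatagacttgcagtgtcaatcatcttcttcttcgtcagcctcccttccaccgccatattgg
The first Cdkn1a window held 2 p53 decamers. The decamer at position -51 was followed, with a gap of 0 bases, by another at -41 that departed from the consensus at 1 base. Such a pair occurred in 0.393% of the 32851 promoter windows in the table, and a single decamer in 8.36%. The second Cdkn1a window held 0 decamers and 2 GC boxes, and the Cdkn1b window 0 decamers and 1 GC box, which 35.7% of windows hold. G and C made up 54.7% of the first Cdkn1a window, with 2 CpG, against 64.7% with 23 CpG in the second and 62% with 30 CpG in that of Cdkn1b. Single p53 decamers also lay in the windows of Cdkn2d (-102), Mdm2 (-186) and Trp53 (-75), and none of the 12 windows other than the first of Cdkn1a held a pair. These are matches of letters and say nothing of binding in these cells.

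Among the INK4 inhibitors, Cdkn2d and Cdkn2c were present and Cdkn2a was not detected. Cdkn2d, which encodes p19Ink4d, was at 57.2 and 44.9 CPM in Altre-KO, against 63.4 and 34.0 CPM in Altre-WT. The Altre-WT libraries enclosed both Altre-KO libraries, so the genotypes overlapped, with means of 51.1 ± 8.75 CPM in Altre-KO and 48.7 ± 20.8 CPM in Altre-WT (SD, n = 2 each). Its log2 fold change was 0.12 (95% interval -0.44 to 0.68), and the direction hung on single libraries: it was -0.05 without Altre-KO replicate 1 and -0.32 without Altre-WT replicate 2, against 0.56 without Altre-WT replicate 1. Cdkn2c, which encodes p18Ink4c, was at 19.9 and 20.3 CPM in Altre-KO, against 16.9 and 19.3 CPM in Altre-WT. The genotypes did not overlap, but the gap between the nearest libraries was smaller than the spread within Altre-WT, and the log2 fold change was 0.14 (95% interval -0.55 to 0.84). It was 0.05 without Altre-WT replicate 1 and 0.23 without Altre-WT replicate 2. Cdkn2c rested on 31 to 65 estimated reads per library, the fewest of the 8 tested genes. Cdkn2d lies on chromosome 9 (21288410 to 21291407) and Cdkn2c on chromosome 4 (109660876 to 109667189), both on the minus strand.

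Cdkn2a, whose transcripts encode p16Ink4a and p19Arf from separate first exons and which is widely used as a marker of cell senescence, was listed at 0 in both Altre-KO and both Altre-WT libraries. Its neighbour Cdkn2b, the gene of p15Ink4b, was at 0.92 and 0.42 CPM in Altre-KO, 3 and 1 estimated reads, and was listed at 0 in both Altre-WT libraries. Cdkn1c, the gene of the remaining CIP/KIP inhibitor p57, was at 3.06 and 6.77 CPM in Altre-KO and 2.19 and 2.94 CPM in Altre-WT, also below the filter. Cdkn2a lies on chromosome 4 (89274471 to 89294653, minus strand). The table of starts holds both of its first exons, printed here because the expression table gives 1 value for both products; the upstream window is chr4:89294570-89294869 and the downstream one chr4:89282143-89282442, minus strand.
Cdkn2a, upstream start: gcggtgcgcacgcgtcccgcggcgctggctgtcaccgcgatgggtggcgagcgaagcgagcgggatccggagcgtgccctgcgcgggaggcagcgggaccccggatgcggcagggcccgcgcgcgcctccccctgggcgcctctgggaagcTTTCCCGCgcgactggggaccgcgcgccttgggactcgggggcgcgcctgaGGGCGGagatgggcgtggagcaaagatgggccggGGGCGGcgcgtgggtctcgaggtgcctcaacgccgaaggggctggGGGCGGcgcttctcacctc
Cdkn2a, downstream start: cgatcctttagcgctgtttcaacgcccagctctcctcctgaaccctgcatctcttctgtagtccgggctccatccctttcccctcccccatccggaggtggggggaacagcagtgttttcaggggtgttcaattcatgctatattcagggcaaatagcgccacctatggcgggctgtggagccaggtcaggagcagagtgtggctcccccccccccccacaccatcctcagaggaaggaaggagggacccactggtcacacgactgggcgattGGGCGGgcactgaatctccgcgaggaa
The upstream window held 1 match to the E2F letters, at -99, which 2.26% of all windows hold, and 3 GC boxes. It was 77% G and C with 45 CpG, against a median of 52.7% and 7 CpG over all windows. The downstream window held 0 E2F matches, 1 GC box and 12 CpG. Neither window held a p53 decamer.

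Trp53, the p53 gene, was at 46.8 and 44.0 CPM in Altre-KO, against 39.9 and 35.3 CPM in Altre-WT. Both Altre-KO libraries lay above both Altre-WT libraries, with means of 45.4 ± 1.99 CPM in Altre-KO and 37.6 ± 3.26 CPM in Altre-WT (SD, n = 2 each). The log2 fold change was 0.27 (SE 0.25, 95% interval -0.24 to 0.78, limma adjusted p = 0.999), from 73 to 153 estimated reads. Mdm2, the ligase gene that p53 itself raises, was at 112 and 86.8 CPM in Altre-KO, against 76.0 and 89.1 CPM in Altre-WT. Here the genotypes overlapped, and the high value was that of Altre-KO replicate 1. The log2 fold change of Mdm2 was 0.26 (95% interval -0.15 to 0.67) and was 0.08 without that library, 0.44 without Altre-KO replicate 2 and 0.14 without Altre-WT replicate 1. Trp53 lies on chromosome 11 (69580359 to 69591873, plus strand) and Mdm2 on chromosome 10 (117688875 to 117710758, minus strand). The processed pseudogene Trp53-ps matches 1090 bases of the Trp53 transcript at 94.9% identity. The estimated reads of Trp53 were whole in all 4 libraries. How shared reads were counted is not stated, so whole reads do not show whether the pseudogene affected the value.

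Mdm4, the partner of Mdm2 that also binds p53, was above Mdm2 and Trp53 per kilobase, with a median of 34.0 CPM per kilobase of merged exons. It was at 484 and 522 CPM in Altre-KO and 437 and 544 CPM in Altre-WT, where the genotypes overlapped. The ratio of Mdm2 to Trp53 within a library was 2.39 and 1.97 in Altre-KO, against 1.904 and 2.52 in Altre-WT. That ratio does not depend on scaling between libraries, and it overlapped between genotypes.

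Rb1, the pocket protein that D cyclin kinases inactivate, had nearly equal levels in the genotypes. It was at 86.3 and 98.2 CPM in Altre-KO, against 88.0 and 95.8 CPM in Altre-WT, with means of 92.3 ± 8.40 CPM in Altre-KO and 91.9 ± 5.52 CPM in Altre-WT (SD, n = 2 each). The log2 fold change was 0.00 (95% interval -0.39 to 0.40), or a fold between 0.763 and 1.32. Its sign changed with the library left out, between -0.09 and 0.10. Its relatives also overlapped between genotypes: Rbl1 was at 98.6 and 93.1 CPM in Altre-KO and 86.4 and 102 CPM in Altre-WT, and Rbl2 at 216 and 242 CPM in Altre-KO and 189 and 238 CPM in Altre-WT. Per kilobase, Rbl2 made up 48.2% and 50.1% of the 3 pocket protein transcripts in Altre-KO and 46.3% and 48.9% in Altre-WT, and Rb1 24.2% and 25.6% in Altre-KO and 27.05% and 24.7% in Altre-WT. Rb1 lies on chromosome 14 (73183673 to 73325822, minus strand). On the opposite strand its exons share 408 bases with Lpar6, a receptor gene, and 488 bases with Rcbtb2. No source used here states whether counting used strand, so reads from these genes cannot be told apart where they overlap. Lpar6 was at 123 and 119 CPM in Altre-KO and 99.0 and 116 CPM in Altre-WT.

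The D cyclins in use in these cells stood on different sides of 0. Ccnd2 was at 274 and 315 CPM in Altre-KO, against 342 and 331 CPM in Altre-WT. Both Altre-KO libraries were below both Altre-WT libraries, with Altre-KO replicate 1 the lowest of all. The means were 294.9 ± 29.1 CPM in Altre-KO and 337 ± 8.12 CPM in Altre-WT (SD, n = 2 each), with a log2 fold change of -0.19 (SE 0.15, 95% interval -0.51 to 0.12, limma adjusted p = 0.999), and it was -0.09 without Altre-KO replicate 1 and -0.29 without Altre-KO replicate 2. Ccnd3 was at 102.8 and 102.6 CPM in Altre-KO, against 92.3 and 78.6 CPM in Altre-WT. Its Altre-KO libraries were almost equal and above both Altre-WT libraries, with a log2 fold change of 0.27 (SE 0.19, 95% interval -0.13 to 0.66, limma adjusted p = 0.999), which was 0.38 without Altre-WT replicate 1 and 0.15 without Altre-WT replicate 2. Neither difference passed the test.

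Ccnd3 was the only gene of the 10 with fractional estimated reads (335.8 and 242.3 in Altre-KO, 168.8 and 187.1 in Altre-WT). How the authors' counting gave fractions is not stated. Ccnd3-ps, a processed pseudogene, matches 881 bases of its transcript at 96.3% identity, and its exons share 361 bases with Bysl on the opposite strand, a gene at 29.4 and 32.5 CPM in Altre-KO and 31.8 and 25.6 CPM in Altre-WT. The separate value of Ccnd3 is uncertain where such sequences share reads. Ccnd2 exons share 372 bases with Gm43126, which is not listed, and 368 bases with 9330179D12Rik, both on the opposite strand. 9330179D12Rik was at 2.14 and 0 CPM in Altre-KO and 1.64 and 3.36 CPM in Altre-WT. The separate value of Ccnd2 is likewise uncertain where they overlap. Ccnd2 lies on chromosome 6 (127125162 to 127152193, minus strand) and Ccnd3 on chromosome 17 (47505051 to 47599691, plus strand). Ccnd1, the D cyclin of many other tissues, was at 1.53 and 5.50 CPM in Altre-KO and 2.73 and 7.15 CPM in Altre-WT.

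Because a ratio within a library is free of scaling between libraries, 6 ratios between these genes and the kinases were computed, chosen after the levels had been seen and given without a test. Ccnd3 over Ccnd2 was 0.375 and 0.325 in Altre-KO, against 0.270 and 0.238 in Altre-WT. Both Altre-KO libraries had the higher ratio, by a mean of 0.46 on the log2 scale, and this difference ran from 0.36 to 0.57 with each library left out in turn. Cdkn1b over Ccnd2, the p27 transcript set against a D cyclin, was 1.16 and 0.977 in Altre-KO, against 0.871 and 0.854 in Altre-WT, likewise without overlap. Both separations follow from the levels above, where Ccnd3 and Cdkn1b were higher and Ccnd2 lower in Altre-KO without overlap. Leaving out a library could therefore not reverse either ratio, and neither adds evidence beyond those levels. Cdkn1b over Ccnd3 was 3.09 and 3.005 in Altre-KO, against 3.23 and 3.59 in Altre-WT. It was lower in Altre-KO without overlap, by a mean of -0.16 on the log2 scale, the opposite direction to Cdkn1b over Ccnd2. Cdkn2d over Cdkn2c and Cdk6 over Cdk4 overlapped between genotypes. With 2 libraries against 2, an exact permutation test cannot give a p below 0.333, so no ratio could have passed one.

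**Figure D2:**
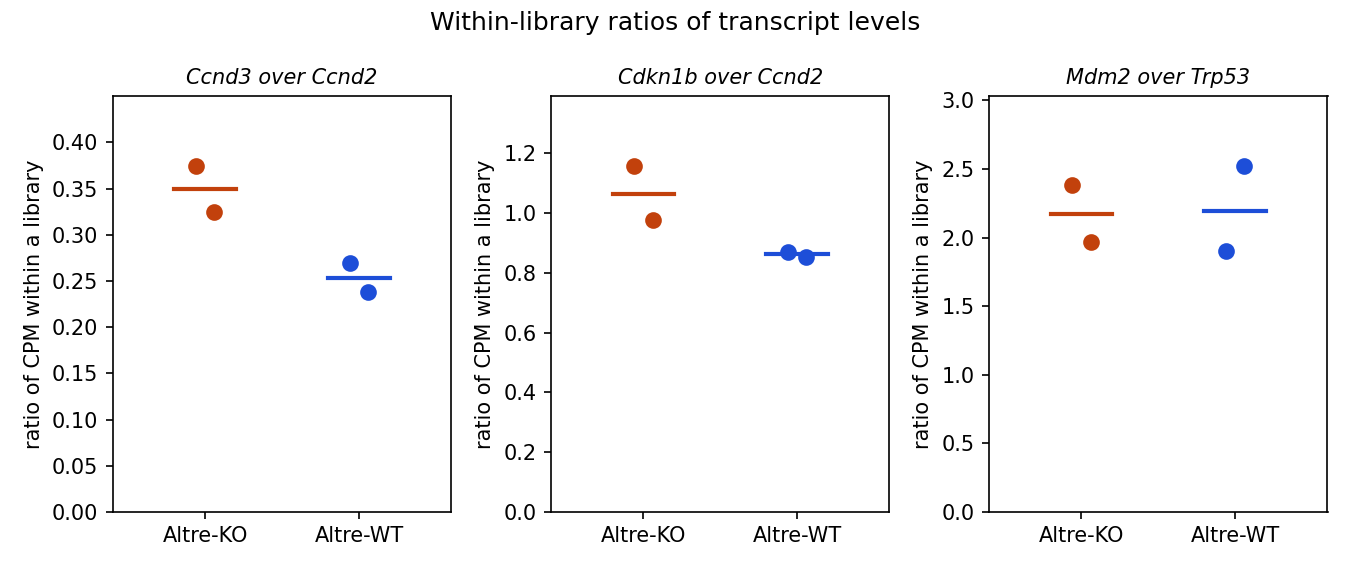
Ratio of CPM within each library for Ccnd3 over Ccnd2, Cdkn1b over Ccnd2 and Mdm2 over Trp53, with Altre-KO left of Altre-WT; dots are libraries, bars are geometric means and the axes start at 0. The first 2 ratios do not overlap between genotypes, which follows from the levels of their genes, and Mdm2 over Trp53 does.

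Of the kinases that D cyclins activate, Cdk4 was at 107.2 and 88.5 CPM in Altre-KO, against 119 and 107.6 CPM in Altre-WT (log2 fold change -0.22), and the genotypes did not overlap although the nearest libraries were 107.2 CPM in Altre-KO and 107.6 CPM in Altre-WT. Cdk6 was at 74.7 and 97.0 CPM in Altre-KO, against 120 and 80.7 CPM in Altre-WT, and overlapped. Neither passed the limma test (adjusted p = 0.999 for both).

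**Figure D3:**
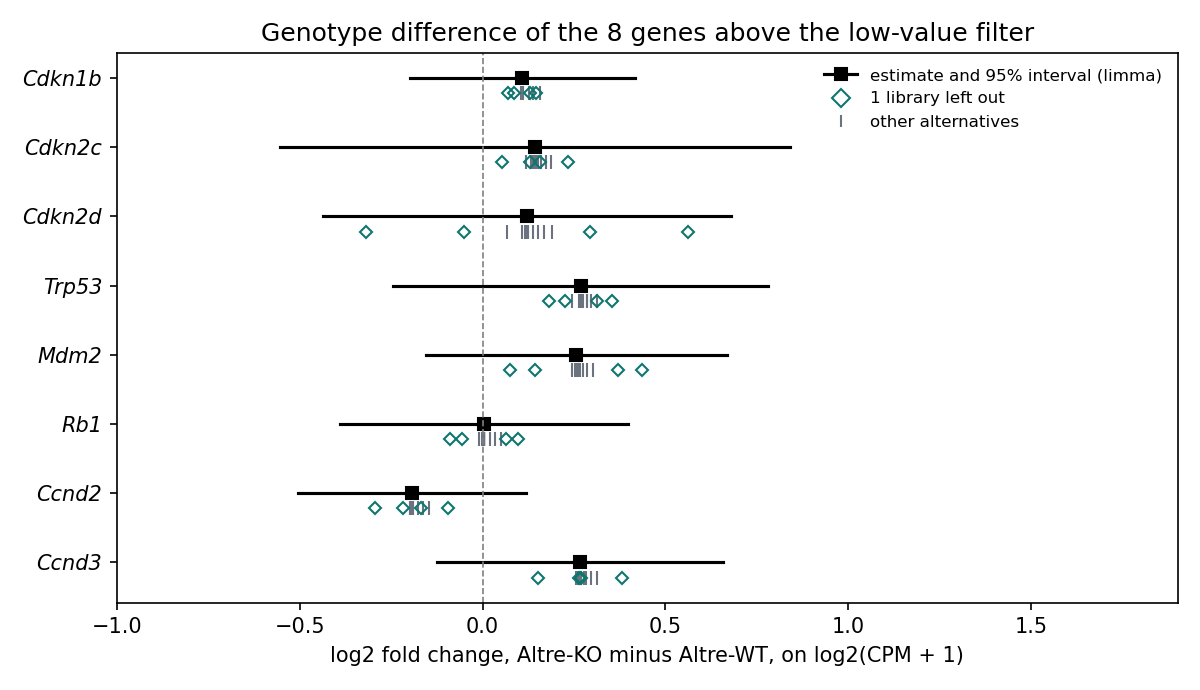
Log2 fold change, Altre-KO minus Altre-WT on log2(CPM + 1), of the 8 genes above the filter: black squares and lines are the limma estimates with 95% intervals, open diamonds the estimates with 1 library left out, and grey ticks the other alternatives. Every interval holds 0, and the diamonds of Cdkn2d run from -0.32 to 0.56.

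Across the 8 tested genes the fitted difference was above 0 for 7, against 47.9% of all tested genes, with a median of 0.13 against -0.01 for all tested genes. The libraries of the genotypes did not overlap for 5 of the 8, against 30.8% of all tested genes. Of these, 4 were higher in Altre-KO (Cdkn1b, Cdkn2c, Trp53 and Ccnd3), against 14.7% of all tested genes, and Ccnd2 was lower, against 16.1%. The number higher in Altre-KO was 5 with Mdm2 under median-of-ratios scaling, where 17.6% of all tested genes were. It stayed at 4 under upper-quartile scaling (14.9% of all tested genes). It was 5 under trimmed mean of M values scaling (18.9%) and under scaling without noncoding RNAs (16.5%). The number was 5 as well without each library in turn, where the same share was 28.3% to 36.3%. Leaving out a library can only keep or raise such a count, so this could not have lowered it. These counts describe 8 genes picked with earlier results of these data known, and none of the differences behind them passed a test.

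Levels can be compared between genes only per length, so CPM were divided by the length of each gene's merged exons. Cdkn1b stood highest, with a median of 66.6 CPM per kilobase over the 4 libraries (62.1 to 69.8). Ccnd2 followed at 34.3 (29.2 to 36.4) and Cdkn2d at 32.4 (21.6 to 40.3), and these neighbours overlapped. Mdm2 at 17.3 (14.95 to 21.985 CPM per kilobase) overlapped with Cdkn2d above it and with Rb1 below it, at 15.3 (14.4 to 16.3). Ccnd3 at 11.1 (8.96 to 11.7) and Trp53 at 10.4 (8.73 to 11.6) overlapped with each other. Cdkn2c came next at 7.30 (6.31 to 7.57), below every library of Trp53, then Cdkn1a at 0.308 (0 to 0.715) and Cdkn2a at 0.

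Part of that order depends on the length used. GENCODE M21 lists 21 transcripts for Ccnd3, and with the longest protein-coding transcript as the length Ccnd3 moved to 46.1 CPM per kilobase (37.2 to 48.7), the third place, which overlaps with Ccnd2 at 51.0 (43.3 to 54.1). Cdkn1b stayed first and Ccnd2 second, and Cdkn2c, Cdkn1a and Cdkn2a stayed in the last 3 places, with all 3 lengths tried. By merged exons, Ccnd3 made up 28.4% and 25.2% of the D cyclin transcripts in Altre-KO and 22.2% and 19.6% in Altre-WT. By protein-coding transcripts, it made up 52.7% and 48.6% in Altre-KO and 44.4% and 40.7% in Altre-WT. Ccnd1 was at most 3.33% of the D cyclins by either length. Among the 7 CDK inhibitors of both families, Cdkn1b made up 60.3% and 62.6% in Altre-KO and 57.5% and 67.2% in Altre-WT by merged exons, and Cdkn2d 31.4% and 26.4% in Altre-KO and 35.4% and 23.4% in Altre-WT.

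**Figure D4:**
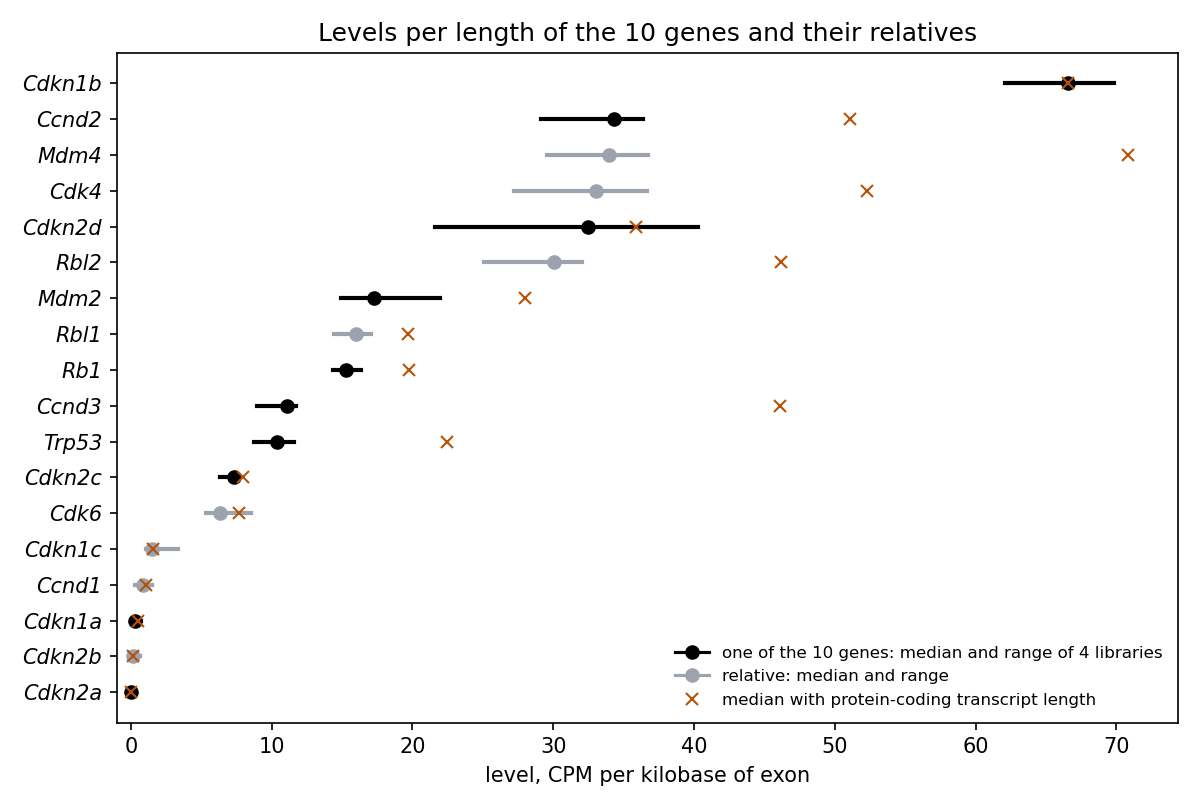
Level in CPM per kilobase of merged exons for the 10 genes (black) and their relatives (grey); dots are medians and lines the range over 4 libraries, and crosses are medians when the longest protein-coding transcript gives the length. Cdkn1b is highest of the 10 by both lengths, and Ccnd3 moves furthest among the 10, from 11.1 to 46.1.

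Genes around these 10 were read from lists of the p53 and G1 pathways. Limma-voom counts for these lists are at an adjusted p under 0.05 unless said otherwise. Of 33 p53 target genes, a list that also holds Cdkn1a, Mdm2 and Ccnd2, 26 passed the filter, and 0 passed the limma test in either direction (1 at an unadjusted p under 0.05, and 0 by limma-voom). Their median log2 fold change was -0.02, with 13 of 26 above 0. Besides Cdkn1a, the targets Phlda3, Eda2r, Perp, Gdf15, Pidd1 and Dram1 stayed below the filter. The 3 with the smallest p went both ways. Rrm2b, a ribonucleotide reductase subunit that p53 raises, was at 47.1 and 51.6 CPM in Altre-KO, against 64.0 and 77.3 CPM in Altre-WT (log2 fold change -0.50). Plk2, a polo-like kinase gene, was at 12.2 and 7.20 CPM in Altre-KO, against 25.7 and 10.9 CPM in Altre-WT (-0.78), and the proapoptotic gene Bbc3 (Puma) at 23.9 and 18.2 CPM in Altre-KO, against 9.84 and 16.8 CPM in Altre-WT (0.65).

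Of 22 tested regulators of p53, 0 passed the limma test (0 at an unadjusted p under 0.05, 0 by limma-voom), and their median log2 fold change was 0.00. Rpl11, a ribosomal protein that binds Mdm2, was at 9.80 and 9.74 CPM in Altre-KO, against 3.83 and 5.04 CPM in Altre-WT (7 to 32 estimated reads per library). Similar transcripts were searched only for the 10 genes, so whether Rpl11 shares reads with other sequences was not tested. The acetyltransferase gene Ep300 was at 86.3 and 171 CPM in Altre-KO, against 166 and 157 CPM in Altre-WT, and Trp53bp1, whose protein binds p53 and marks DNA breaks, at 76.0 and 137 CPM in Altre-KO, against 127 and 127 CPM in Altre-WT. For Ep300 and Trp53bp1 only Altre-KO replicate 1 was low.

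Of 21 other G1 genes (CDKs, cyclins, pocket proteins, E2F factors and the inhibitors Cdkn2b and Cdkn1c), 15 passed the filter and 0 the test, with 2 at an unadjusted p under 0.05 and 0 by limma-voom. These were Cdk2, the kinase that p27 and p21 restrain, at 62.8 and 38.5 CPM in Altre-KO, against 30.1 and 33.2 CPM in Altre-WT (log2 fold change 0.62), and E2f4, an E2F factor that represses in resting cells, at 26.0 and 27.5 CPM in Altre-KO, against 42.6 and 37.8 CPM in Altre-WT (-0.57). Both had a limma adjusted p of 0.999. E2f6, another repressor E2F, had the third smallest p, at 21.1 and 15.2 CPM in Altre-KO, against 12.03 and 11.8 CPM in Altre-WT. Of 10 tested genes of p27 turnover and of the CDK-activating kinase, 0 passed (0 at an unadjusted p under 0.05, 0 by limma-voom). Those with the smallest p were Rnf123, of the ligase that removes p27 in G1, at 122 and 135 CPM in Altre-KO and 168 and 134 CPM in Altre-WT, Mnat1 of the CDK-activating kinase, at 31.2 and 30.5 CPM in Altre-KO and 23.5 and 24.0 CPM in Altre-WT, and Cks1b, which helps the ligase subunit Skp2 bind p27, at 4.90 and 6.77 CPM in Altre-KO and 13.7 and 6.31 CPM in Altre-WT.

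S phase and mitosis genes lay on both sides of 0. Of 21 tested S phase genes under E2F, 8 had a fitted difference above 0 (median -0.04) and 0 passed the limma test (1 at an unadjusted p under 0.05, 0 by limma-voom). Rrm2, the ribonucleotide reductase subunit of S phase, was at 17.8 and 16.9 CPM in Altre-KO, against 8.75 and 6.73 CPM in Altre-WT, while the helicase gene Mcm4 was at 78.4 and 93.1 CPM in Altre-KO, against 125 and 101 CPM in Altre-WT. Rrm1, the partner of Rrm2, overlapped, at 76.2 and 71.1 CPM in Altre-KO and 44.3 and 72.7 CPM in Altre-WT. Of 16 tested G2 and mitosis genes, 10 were above 0 (median 0.11) and 0 passed (0 at an unadjusted p under 0.05, 0 by limma-voom). At an unadjusted p under 0.05, limma-voom had 1 of these 16, 1 of the 21 S phase genes and 1 of the 26 p53 targets. It also had 2 of the 15 other G1 genes and 1 of the 14 quiescence genes described below. The proliferation marker Mki67 was at 49.9 and 81.3 CPM in Altre-KO, against 83.7 and 83.2 CPM in Altre-WT, so the low value was again that of Altre-KO replicate 1. Kif11, a spindle motor gene, was at 32.4 and 28.4 CPM in Altre-KO and 28.4 and 11.8 CPM in Altre-WT, and the mitotic kinase gene Cdk1 at 7.04 and 10.2 CPM in Altre-KO and 4.37 and 3.78 CPM in Altre-WT.

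Of 14 genes listed for their links to quiescence, all above the filter, 0 passed the limma test (1 at an unadjusted p under 0.05, 0 by limma-voom). Of these, 5 had a fitted difference above 0, and the median was -0.08. Klf6, a zinc finger factor, was at 390 and 423 CPM in Altre-KO, against 511 and 549 CPM in Altre-WT (log2 fold change -0.38). The antiproliferative gene Tob2 was at 72.9 and 79.2 CPM in Altre-KO, against 108 and 87.0 CPM in Altre-WT. Klf2, which keeps T cells quiescent, was at 183 and 182.9 CPM in Altre-KO, against 237 and 195 CPM in Altre-WT. All 3 lay lower in both Altre-KO libraries. Without overlap between genotypes, 0 of the 14 lay higher and 4 lower in Altre-KO, against 14.7% higher and 16.1% lower over all tested genes. The same counts were 4 higher and 6 lower of the 26 p53 targets, 2 and 3 of the 22 p53 regulators, and 3 and 2 of the 15 other G1 genes. They were 2 higher and 0 lower of the 10 p27 turnover genes, 4 and 1 of the 21 S phase genes, and 3 and 2 of the 16 G2 and mitosis genes.

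These list medians rest on single libraries. The median of the p53 targets was 0.07 without Altre-KO replicate 2, and that of the p53 regulators -0.12 without Altre-WT replicate 1 and -0.01 without Altre-KO replicate 2. That of the G1 genes was -0.04 without Altre-WT replicate 1 and 0.25 without Altre-WT replicate 2. The p27 turnover list had -0.11 without Altre-KO replicate 1, -0.04 without Altre-WT replicate 1 and -0.01 without Altre-WT replicate 2. S phase genes had 0.12 without Altre-KO replicate 2, 0.03 without Altre-WT replicate 1 and 0.02 without Altre-WT replicate 2, and the quiescence list 0.01 without Altre-KO replicate 1. The G2 and mitosis median kept its sign, between 0.06 and 0.21.

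**Figure D5:**
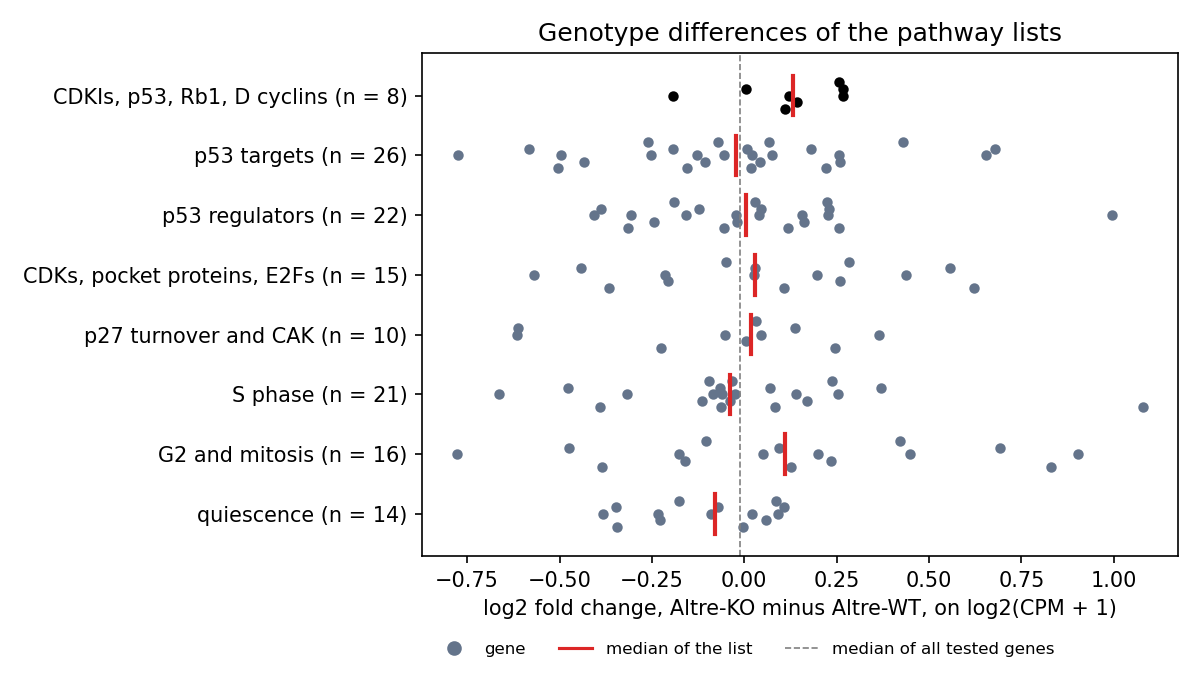
Log2 fold change, Altre-KO minus Altre-WT on log2(CPM + 1), of the 8 tested CDK inhibitor, p53, Rb1 and D cyclin genes (black) and of each pathway list (grey), 1 dot per tested gene; red bars are list medians and the dashed line the median of all tested genes. The list medians lie between -0.08 and 0.13, and the genes of each list fall on both sides of 0.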

How the data were processed

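The data are 4 RNA sequencing libraries of mouse liver Tregs, 2 Altre-KO and 2 Altre-WT. Per the labels' protocols, RNA came from a micro-scale column kit and libraries from a SMARTER mRNA kit. The tools named are cutadapt, STAR and DESeq2, with build mm10, per the submitters' processing notes. No source used here states their roles or versions, the counter or the annotation.

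The authors deposited RPM values, with 0.0001 added as read from the values, and CPM values, which sum to the same total in each library per the file headers and values. The authors' deposited table also holds mean CPM per genotype, a log2 fold change, a p-value and an adjusted p-value from a test the file headers do not name. The step between low RPM values gave what 1 read is worth. Between 92.8% and 93.7% of values above 0 were whole reads within a tolerance of 0.02, so values were not treated as counts. These reads are estimates, and their number limits the precision of low genes.

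Limma (version 3.58.1, R 4.3.3) with a variance trend was run on log2(CPM + 1), genotype as the only term, with Benjamini-Hochberg adjustment over 10486 genes and a threshold of 0.05. Fold changes on this scale understate those of low genes. The fit was tested on simulated data with the same dispersion for every gene and both genotypes. That setting lacks the unequal spread between genotypes given below. The 10 genes, the pathway lists and the marker lists were chosen with earlier results of these data known. Named genes are the 10, fixed relatives, and the 3 of each list with the smallest p. All 191 list genes were matched by symbol or RefSeq synonym. Lengths and positions are from GENCODE M21 (GRCm38), and similar transcripts were searched with blastn 2.17.0. Libraries of the same genotype differed by more than sampling alone (chi-square 10.3 times its degrees of freedom in Altre-KO and 3.50 times in Altre-WT). Matplotlib 3.10.9 drew the figures.

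Alternatives changed the pseudocount (0.1, 0.5 and 5), the low-value filter, 4 scalings, limma-voom, no variance trend, the replicate number as a block, an adjusted p of 0.1, the authors' comparison and leaving out each library. Scaled non-overlap counts, ratios and the protein-coding length were added after seeing the data.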

Additional observations from a re-analysis of the deposited data

How the results depend on the processing

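None of the 8 tested genes passed an adjusted p of 0.05 under any alternative run (lowest 0.650 in limma). Over all tested genes, 4 passed in the fit reported, 2 with a pseudocount of 0.1 and 1 without the variance trend, and 6 to 16 passed without each library in turn (14 without Altre-KO replicate 2 and 16 without Altre-WT replicate 2). Fitted directions held under the 17 alternatives run, each library left out included, for Cdkn1b, Trp53, Mdm2, Ccnd2 and Ccnd3, and under 16 for Cdkn2c, which a mean of at least 20 CPM leaves out. Much of this was fixed in advance. Changing the low-value filter, dropping the variance trend and the replicate block cannot alter a fold change. Leaving out a library cannot reverse Cdkn1b, Cdkn2c, Trp53, Ccnd2 or Ccnd3, whose genotypes did not overlap. Rb1 changed sign with upper-quartile scaling (-0.0011) and limma-voom (-0.010), and ran from -0.088 to 0.096 with a library left out. Cdkn2d ran from -0.32 to 0.56 with a library left out. The cause was not tested. With the replicate number as a block, 6 genes passed and 0 of the 8; same-numbered libraries share only a number (correlation of their deviations -0.010 over genes). Depth limits Cdkn1a, Cdkn2a and Cdkn2b, which had at most 6 estimated reads in a library.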
